A study of Mus musculus with 6 samples.

Results

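The cells described here were interferon-responding cardiac macrophages, taken from single-cell RNA libraries of CD45+ cells of the mouse heart. They were defined by raw counts of transcripts, each tagged with a unique molecular identifier (UMI): at least 10 UMIs of C1qa, C1qb and C1qc together, which mark tissue macrophages, and at least 4 UMIs of the interferon-induced genes Ifit2, Ifit3 and Rsad2 together. Cells with 2 or more UMIs of the cycling genes Mki67, Top2a and Birc5, with 2 or more of the B cell genes Cd79a and Cd79b, or with any UMI of the T cell genes Cd3e, Cd3d and Cd3g were left out, as were barcodes with fewer than 200 genes or more than 10% mitochondrial UMIs. The rule held for 668 of 11501 macrophages that met the same C1q and exclusion conditions (5.81%), and for 2.04% of all 32761 kept cells. These 668 cells are called gated cells, and the 10833 macrophages with fewer than 4 UMIs of the gate genes are called other C1q macrophages.

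The study compared hearts of C57Bl6J mice 28 days after a sham procedure or 12 Gy in 1 fraction, given with a small animal irradiator. There were 2 libraries each of sham-treated wild-type mice, of irradiated wild-type mice and of irradiated mice labelled STING KO, whose titles call them Tmem mice. The question set by this design is how irradiation and STING change the CD45+ cells of the heart, and there was no sham library of the knockout. The labels do not say which animals or how many went into a library, so each p-value measures only the spread between these libraries.

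Type I interferons signal through the receptor Ifnar1 and Ifnar2 to transcription factors, among them Stat2 and Irf9, that bind interferon-stimulated response elements in promoters of antiviral genes. STING, the product of Tmem173, is an adaptor that links cyclic dinucleotides made by the DNA sensor cGAS to the kinase Tbk1 and to transcription of interferon genes. Heart macrophages are known to include self-maintaining resident cells, marked by Lyve1, Folr2 and Timd4, and Ccr2 cells that derive from blood monocytes, and either kind can respond to interferon.

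The promoters of the genes at issue are shown because the response element can be read in them. The letters come from the RefSeq promoter table on build GRCm38.p6, which holds 250 bases before and 50 bases after each start. The motif GAAANNGAAA was searched on both strands, where it reads TTTCNNTTTC, and overlapping matches were merged. It was found in 1079 of 27025 genes (3.99%), in 10 of 25 matched genes among the 30 with the highest ratio of gated to other cells (40%), and in 0 of 11 matched genes among the 15 with the lowest. The 30 genes were picked through the gate, and the 10 are not independent. Around the motif, Ifit3b had the same letters as the gate gene Ifit3, Ifi208 the same as Ifi213, and Ifi206 nearly the same. The shares were not compared by a test. Capitals mark the motif, each line reads 5′ to 3′ on the strand of its gene, and no line runs past the start. Ifit3 and Rsad2 are gate genes, and Ifit1, Isg15, Oas3, Slfn5 and Ifi211 are not.
Ifit3 (chr19:34583343-34583446, plus strand): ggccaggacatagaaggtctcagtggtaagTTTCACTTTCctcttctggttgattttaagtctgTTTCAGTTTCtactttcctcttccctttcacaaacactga
Rsad2 (chr12:26456533-26456602, minus strand): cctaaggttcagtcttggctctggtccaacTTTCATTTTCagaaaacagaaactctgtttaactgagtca
Ifit1 (chr19:34640755-34640843, plus strand): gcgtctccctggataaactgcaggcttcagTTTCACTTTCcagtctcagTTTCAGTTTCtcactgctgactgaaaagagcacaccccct
Isg15 (chr4:156200845-156200926, minus strand): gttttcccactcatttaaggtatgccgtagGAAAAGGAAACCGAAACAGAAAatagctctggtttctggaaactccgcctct
Oas3 (chr5:120777695-120777764, minus strand): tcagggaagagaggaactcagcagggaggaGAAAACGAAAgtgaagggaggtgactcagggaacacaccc
Slfn5 (chr11:82951917-82951986, plus strand): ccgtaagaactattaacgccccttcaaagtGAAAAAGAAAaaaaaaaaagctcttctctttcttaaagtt
Ifi211 (chr1:173913047-173913113, minus strand): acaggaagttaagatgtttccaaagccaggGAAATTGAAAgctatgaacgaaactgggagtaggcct
In Ifit1 the first match began 104 bases and the last 85 bases before the start, and in Ifit3 the distances were 156 and 122 bases. Isg15 held 3 overlapping matches, read as 1 run. These matches are a description of letters. No match was found for Irf7 or Cmpk2 in the same window, which says only that these letters are not there.

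Total UMIs per library ranged from 31650962 to 59675213, and 4556 to 9319 barcodes were listed per library, beside the 4500 to 9300 cells given for library preparation in the labels' protocols. Barcodes over the mitochondrial limit made up 23.2% to 33.4% of a library. The summed level of 12 macrophage markers in gated cells ran from 28547 to 33647 CPM (a gene's UMIs in the summed cells, scaled to a total of 1000000 UMIs), with none at 0. That sum includes the 3 C1q genes that chose the cells. The other 9 markers summed to 15466 to 19795 CPM in gated cells and 16655 to 26297 in other C1q macrophages, and 6 of the 9 were lower and 1 higher in gated cells in all 6 libraries (median log2 ratio -0.18). Endothelial, neutrophil and fibroblast markers in gated cells are given with the genes beyond the gate. Between 4 and 12 kept barcodes were shared by any pair of libraries, and 30 by the 2 knockout-labelled libraries, while 0 gated cells shared one. Tmem173 transcripts, the check on the genotype label, were at 70.9 and 27.8 CPM in gated cells of the sham libraries, 65.5 and 60.7 in irradiated wild type, and 52.0 and 47.3 in the knockout-labelled libraries. In other C1q macrophages the 6 values lay between 43.2 and 54.2 CPM and overlapped between the genotypes. The kit reads 3′ ends and the labels do not give the altered part of the gene, so this level does not check the allele. The third group is therefore called the knockout-labelled libraries throughout.

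Gated cells were a small share of macrophages in sham hearts and a larger one after 12 Gy. In the sham libraries 46 of 1972 and 51 of 2184 C1q macrophages were gated, 2.33% (95% Wilson interval 1.75 to 3.10) and 2.34% (1.78 to 3.06). In irradiated wild type there were 172 of 1337 and 184 of 2016, 12.9% (11.2 to 14.8) and 9.13% (7.95 to 10.5). In the knockout-labelled libraries there were 71 of 1948 and 144 of 2044, 3.64% (2.90 to 4.57) and 7.05% (6.01 to 8.24). Both irradiated wild-type libraries stood above all 4 others, and both knockout-labelled libraries lay between the sham and the irradiated wild-type libraries. Intervals cover counting error only.

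The group means were 2.33% ± 0.00177 for sham, 11.0% ± 2.64 for irradiated wild type and 5.34% ± 2.40 for the knockout-labelled libraries (SD, n = 2 each). Irradiated wild type exceeded sham by 8.66 percentage points, a ratio of 4.71. The knockout-labelled mean differed from irradiated wild type by -5.65 points, a ratio of 0.486. Neither difference could pass a threshold, since 2 libraries against 2 give an exact two-sided permutation p of 0.333 at the smallest, and both had that value.

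The gate counts raw UMIs, and gated cells were deeper than the others in each library, with medians from 6718 to 12524 UMIs against 4966.5 to 8780. The knockout-labelled libraries were the deepest. With each cell thinned to 6000 UMIs and shallower cells left out, the shares were 2.36% and 2.53% in sham, 11.3% and 9.51% in irradiated wild type, and 2.19% and 4.98% in the knockout-labelled libraries. Thinned to 3000 UMIs they were 1.13% and 0.912%, 6.41% and 4.76%, and 1.14% and 2.37%. Irradiated wild type stayed above the other groups at both depths. The first knockout-labelled library then lay at the sham level, while the second stayed above it.

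**Figure D1:**
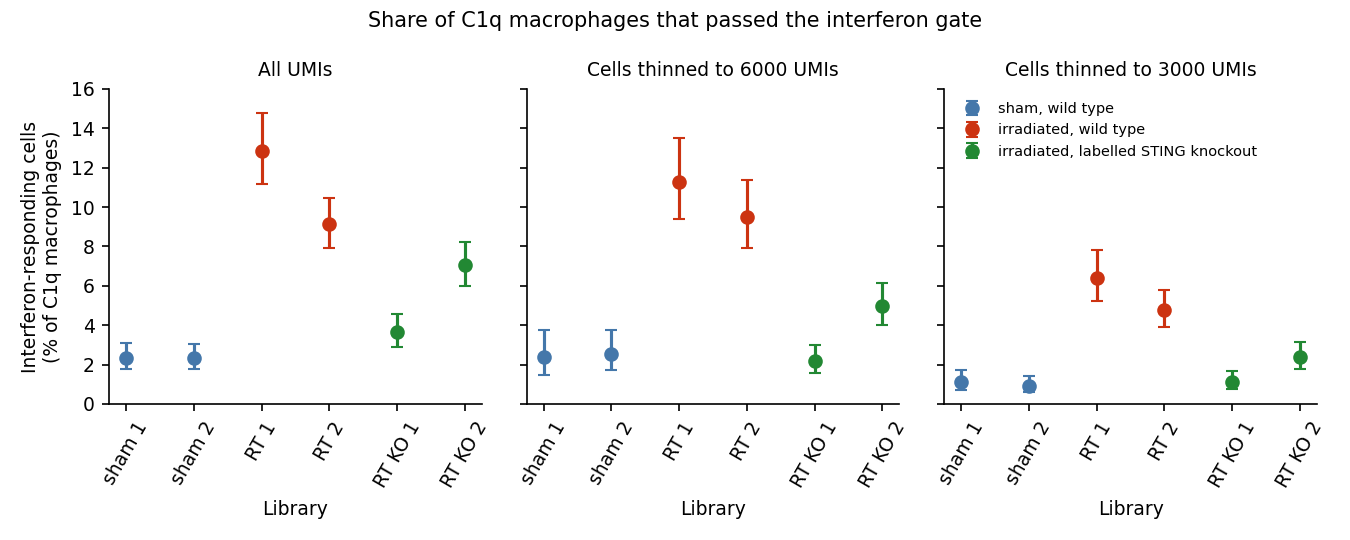
Share of C1q macrophages that were gated (y axis, percent) in each of the 6 libraries (x axis), with all UMIs and with cells thinned to 6000 or 3000 UMIs; points are libraries and bars are 95% Wilson intervals. The irradiated wild-type libraries are the 2 highest in every panel, at 12.9% and 9.13% with all UMIs.

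Cells over the mitochondrial limit, which the rule leaves out, gave the same order of groups. Among C1q macrophages over the limit that met the other conditions, 10 of 496 and 12 of 858 were over the gate in sham (2.02% and 1.40%), 48 of 336 and 87 of 1087 in irradiated wild type (14.3% and 8.0%), and 16 of 636 and 29 of 679 in the knockout-labelled libraries (2.52% and 4.27%). These cells took no part in any other value.

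The gate genes themselves describe how the cells were chosen. The summed UMIs of Ifit2, Ifit3 and Rsad2 had a median of 6, 7, 8, 9, 8 and 7 per gated cell in the 6 libraries (in the order sham 1 and 2, irradiated wild type 1 and 2, knockout-labelled 1 and 2, which all later lists of 6 values follow). The highest cell had 195. Of the 668 cells, 349 (52.2%) had UMIs of all 3 genes and 582 (87.1%) of at least 2. At the threshold, 123 cells had exactly 4 UMIs and 162 cells just outside had 3, so the edge is a point on a range and not a gap. In addition, 356 of 1024 C1q cells with 4 or more gate UMIs were left out by the exclusions, 158 through the cycling genes, 200 through Cd79 and 112 through Cd3, with some cells counted under more than 1.

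Beyond the 3 gate genes, gated cells held more RNA of nearly the whole interferon-stimulated list. Of 66 measured members, 65 were higher in gated than in other C1q macrophages in all 6 libraries and 0 were lower in all 6, with a median log2 ratio of 1.66 of CPM + 5. Over all 12412 genes detected in at least 1% of cells, 8.31% were higher in all 6 libraries and 5.66% lower in all 6, with a median near 0. The rule used this contrast, so these values are a description and nothing is read from them.

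The highest ratios belonged to antiviral effectors. Ifit1 (ENSMUSG00000034459, chr19:34640871-34650009 on GRCm38, plus strand), which binds RNA with foreign cap structures, was at 225, 378, 320, 406, 248 and 284 CPM in gated cells and at 8.77, 11.6, 18.6, 17.9, 8.70 and 13 in the others, a median log2 ratio of 4.11. It had a UMI in 68.7% of gated cells and 6.53% of other C1q macrophages. All gated values stood far above all the others, with no order by group. Isg15 (ENSMUSG00000035692, chr4:156199424-156200818, minus strand), a ubiquitin-like modifier, was at 313, 299, 421, 411, 440 and 617 CPM in gated cells against 20.9, 28.9, 52.8, 55.4, 37.5 and 60.1, a median log2 ratio of 3.21. Its highest gated levels lay in the knockout-labelled libraries. Ifit3b, at 3.56, is a near copy of the gate gene Ifit3 and its reads may be shared with it, so its value is uncertain.

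Next came Cmpk2 (3.13), a nucleotide kinase encoded beside Rsad2, and Usp18 (2.63), which removes Isg15 from proteins and restrains the receptor. The oligoadenylate synthetase family followed with Oasl1 (2.56) and Oas3 (2.48). The GTPases Iigp1 (2.82) and Ifi47 (2.45), which act on vacuoles of intracellular microbes, and the DNA-binding Pyhin genes Ifi208 (2.60), Ifi206 (2.24), Ifi211 (2.10), Ifi205 (2.10), Ifi213 (2.09) and Ifi209 (1.99) were in the same range. Several Pyhin genes are near copies of each other, and Ifi206, Ifi208 and Ifi213 could not be separated with certainty. The rest of the 30 in the interferon list or near it were Irf7 (2.37), Slfn1 (2.26), Isg20 (2.22), Phf11d (2.16), Ly6a (2.13), Ifi44 (2.12), Herc6 (2.07), Ms4a4c (2.06), Tnfsf10 (2.03) and Slfn5 (2.01). Tnfsf10, the death ligand TRAIL, stayed at 17.6 to 30.5 CPM in gated cells and 1.51 to 3.07 in the others.

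Of these 30 genes, 19 were in the fixed interferon list and 11 were not. Among the 11 were 5 genes typical of endothelial cells: Igfbp7 (3.01), Sparc (2.85), Fabp4 (2.33), Gng11 (2.23) and Cavin1 (2.16). With 2 or more UMIs of another lineage's markers as the limit, 11, 13, 22, 21, 22 and 25 gated cells carried such transcripts (23.9%, 25.5%, 12.8%, 11.4%, 31.0% and 17.4%). Among other C1q macrophages the share was lower, from 5.09% to 11.3%. All 10 endothelial markers were higher in gated cells in all 6 libraries, with summed levels from 811 to 3591 CPM against 59.2 to 297 in the others, and none at 0. Neutrophil markers summed to 4336 and 27746 CPM in gated sham cells, 1112 and 1996 in irradiated wild type, and 3512 and 1548 in the knockout-labelled libraries, with 1 of the 10, Camp, at 0 in all 6. In other C1q macrophages they ran from 450.2 to 6158 CPM. Fibroblast markers summed to 1782, 185, 215, 488, 1790 and 273 CPM in gated cells, against 207 to 363 in the others.

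When the cells with a second lineage were left out, an alternative added after seeing the data, the median log2 ratio was 0.20 for Igfbp7, -0.25 for Sparc, -0.53 for Fabp4, -0.09 for Gng11 and 0.09 for Cavin1. Ly6a kept 1.29 and was higher in 5 of 6 libraries. The other 24 of the 30 genes were higher in all 6 libraries, and Ifit1 had a ratio of 4.49. The share of gated cells under this alternative differed between irradiated wild type and sham by 8.44 points, and between knockout-labelled and irradiated wild type by -5.63 points.

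**Figure D2:**
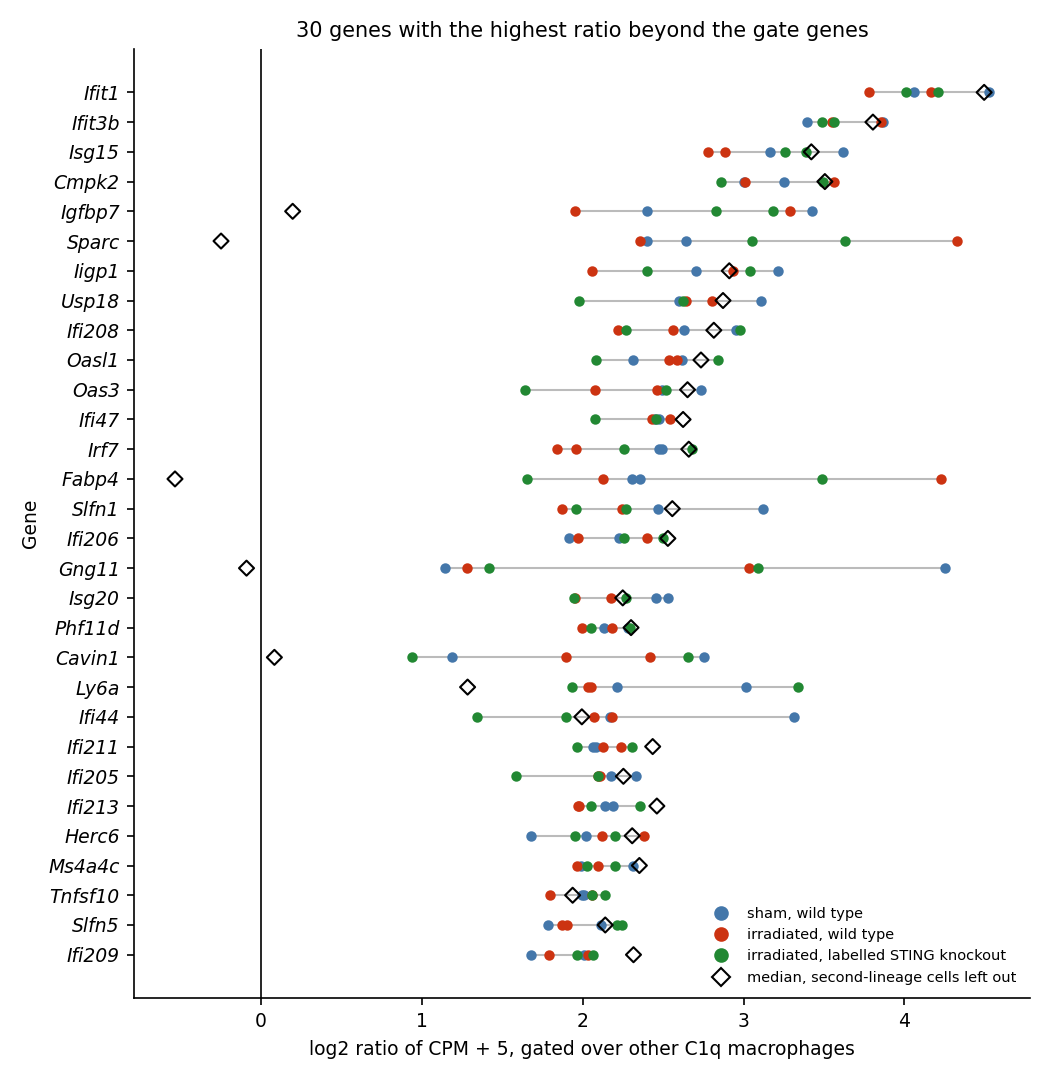
The 30 genes with the highest median log2 ratio of CPM + 5 in gated over other C1q macrophages (x axis), 1 row per gene; dots are the 6 libraries, coloured by group, lines their range, and open diamonds the median without cells carrying a second lineage's transcripts. Diamonds lie near 0 for Igfbp7, Sparc, Fabp4, Gng11 and Cavin1 and within or near the range of the dots for the other genes apart from Ly6a.

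The other lists separated by role. The interferon-inducible GTPases were higher in all 6 libraries for 16 of 21 detected members, with a median of 1.37, among them Gbp2 (1.90), Irgm1 (1.86) and Gbp3 (1.37). MHC class I and peptide loading genes were higher for 17 of 21, with a median of 0.50, such as the peptide transporter Tap1 (0.93), the immunoproteasome subunit Psmb9 (0.66) and the heavy chain H2-K1 (0.29). MHC class II genes went the other way: 0 of 11 were higher and 6 were lower in all 6 libraries, with a median of -0.38. H2-Aa was at -0.38 and the invariant chain Cd74 at -0.44. Of the genes that sense nucleic acids 10 of 21 were higher, with Ddx58 (1.83) and Ifih1 (1.79), the cytosolic RNA sensors, Zbp1 (1.96) and Cgas (0.71) among them, while Tbk1 was at -0.01 and Irf3 at -0.14.

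In the receptor and signalling list 5 of 20 were higher and 5 lower in all 6 libraries. Stat2 was at 92.9, 83.5, 136, 129, 93.1 and 129.8 CPM in gated cells against 35.7, 27.7, 38.2, 33.7, 30.6 and 35.2 in the others, a median log2 ratio of 1.58. Ifnar1, the receptor chain, was lower in gated cells in each library, at 51.3, 53.3, 64.9, 58.2, 90.1 and 84.4 CPM against 93.8, 73.8, 90.3, 81.7, 97.4 and 95.9. Ifnar2 had a median of 0.04 and was higher in 4 of 6 libraries. Ifngr1, the interferon gamma receptor chain, was lower in all 6 at -0.34.

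Among chemokines, 7 of 21 were higher in all 6 libraries and 5 were lower, with a median of -0.05. Cxcl10, which attracts Cxcr3 lymphocytes, was at 1.98, just below the 30 highest genes. The Ccr2 ligands Ccl12, Ccl7 and Ccl2 were at 1.78, 0.87 and 0.26, Ccl8 at 0.86 and Cxcl9 at 0.78, all higher in each library. Cxcl16 was lower in each library at -0.27. Cd274, the checkpoint ligand PD-L1, was higher in each library, from 16.2 to 34.2 CPM in gated cells against 6.54 to 12.2.

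The 15 genes with the lowest ratios had smaller values, from -1.04 to -0.54. Fn1, the matrix protein fibronectin, was at 112, 25.5, 113, 190, 276 and 151 CPM in gated cells against 165, 412, 228, 416, 406 and 632. Il1rl1, the IL-33 receptor (-0.76), Ptgs1, a prostaglandin synthase (-0.61), the alternative activation gene Retnla (-0.55), the prostaglandin-degrading enzyme Hpgd (-0.54) and the lipopolysaccharide co-receptor Cd14 (-0.54) were also lower in each library. The others were Slc2a8 (-0.70), Stard9 (-0.63), Atmin (-0.62), Lrwd1 (-0.61), Gpr132 (-0.60), Abca9 (-0.59), AI504432 (-0.57), Galc (-0.56) and Dpep2 (-0.56). Resident macrophage genes (1 of 24 higher, 3 lower, median -0.16) and monocyte-derived genes (2 of 23 higher, 4 lower, median 0.19) showed no common direction.

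Within the gated cells, levels of several interferon-stimulated genes went with the gate sum, which is again a description. Cells with 10 or more gate UMIs numbered 10, 18, 76, 82, 29 and 57, and those with 4 to 9 numbered 36, 33, 96, 102, 42 and 87. Isg15, Irf7, Cxcl10 and Ifit1 were higher in the first range in all 6 libraries. In the first irradiated wild-type library Cxcl10 was at 403 CPM at 4 to 9 UMIs and 1692 at 10 or more, Irf7 at 361 and 864, and Ccl12 at 977 and 2790. Ccl12 was the exception in the first knockout-labelled library, at 440.0 and 431. In cells with no gate UMI, Irf7 was at 26, 29.6, 124, 99.1, 26.8 and 34.4 CPM, so the irradiated wild-type libraries were the highest also where none of the gate genes was seen.

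**Figure D3:**
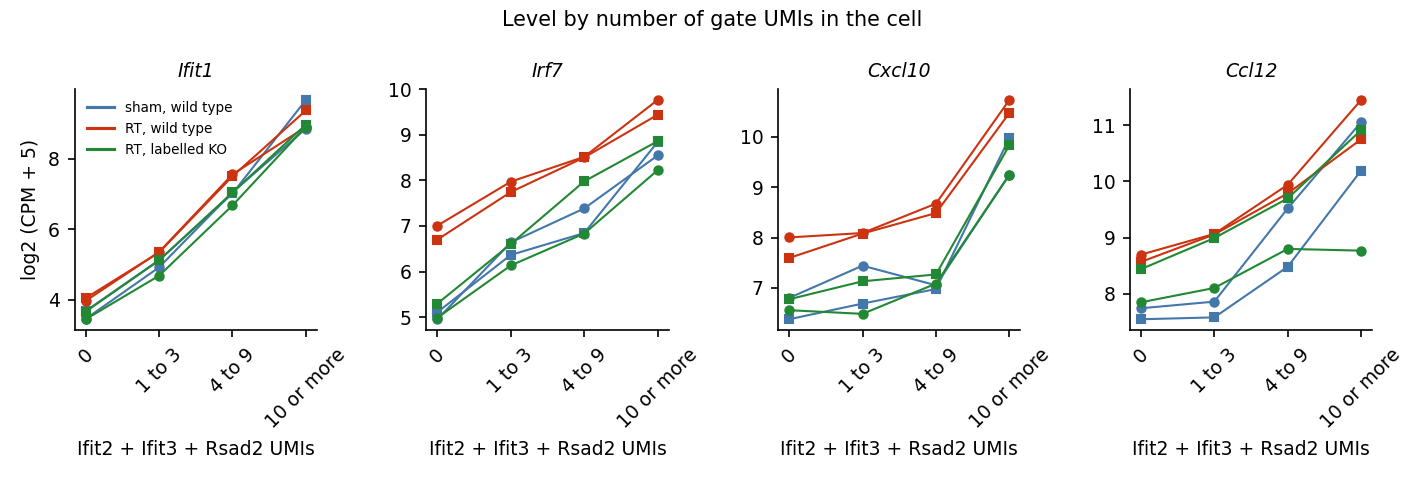
Level of Ifit1, Irf7, Cxcl10 and Ccl12 (y axes, log2 of CPM + 5, each with its own range) in C1q macrophages grouped by their UMIs of Ifit2, Ifit3 and Rsad2 (x axis), 1 line per library coloured by group. Both irradiated wild-type lines lie above the others in every range for Irf7 and Cxcl10, and in every range but the highest for Ifit1.

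The next comparison asked whether gated cells of different groups differed in genes beyond the gate. Sums of gated cells per library were fitted with edgeR's quasi-likelihood test over 9273 genes with Benjamini-Hochberg adjustment, all 6 libraries sharing 1 estimate of spread with 3 residual degrees of freedom. Between irradiated and sham wild type 0 genes passed an adjusted p of 0.05 (0% called), while 846 had an unadjusted p under 0.05 and DESeq2 called 50. Between knockout-labelled and irradiated wild type 2 genes fell (0.0216% called) and 0 rose. The first count rested on the libraries kept: it was 36 without sham 1, 8 without sham 2, 22 and 24 without knockout-labelled 1 and 2, and 0 without either irradiated wild-type library. It was 38 when only the 4 libraries compared were fitted. Without cells carrying a second lineage's transcripts, 27 genes passed for irradiation (13 rose and 14 fell, 0.166% and 0.179% of the 7832 genes tested) and 67 for the knockout label (18 rose and 49 fell, 0.23% and 0.626%).

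No member of the interferon list passed the test in gated cells, yet its levels were ordered. After irradiation 45 of 65 tested members had both irradiated wild-type libraries above both sham libraries and 1 had them below, against 22.2% and 18.7% of all genes tested. The median log2 change was 0.35, against -0.02 over all genes. In the knockout-labelled libraries 24 of 65 were below both irradiated wild-type libraries and 2 were above, against 11.7% and 28.2% of all genes, with a median of -0.37 against 0.02. In other C1q macrophages the same list had a median of 0.50 for irradiation and -0.40 for the knockout label. There, 13 of 64 members rose and 1, Trim25, fell after irradiation, against 1.59% and 1.4% of all 12836 genes. For the knockout label 0 rose and 4 fell (Irf7, Oasl1, Bst2 and Lgals3bp), against 0.164% and 0.28%. Both contrasts share the irradiated wild-type libraries. The gate counts raw UMIs of interferon-induced genes, so it sets a lower CPM limit in deeper cells. Gated cells had median UMIs of 6884.5 and 6718 in sham, 8603 and 7488.5 in irradiated wild type, and 12524 and 10503 in the knockout-labelled libraries. Their median gate sums were 6 and 7, 8 and 9, and 8 and 7. The part of the gate and of depth in the order of levels in gated cells was not tested.

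**Figure D4:**
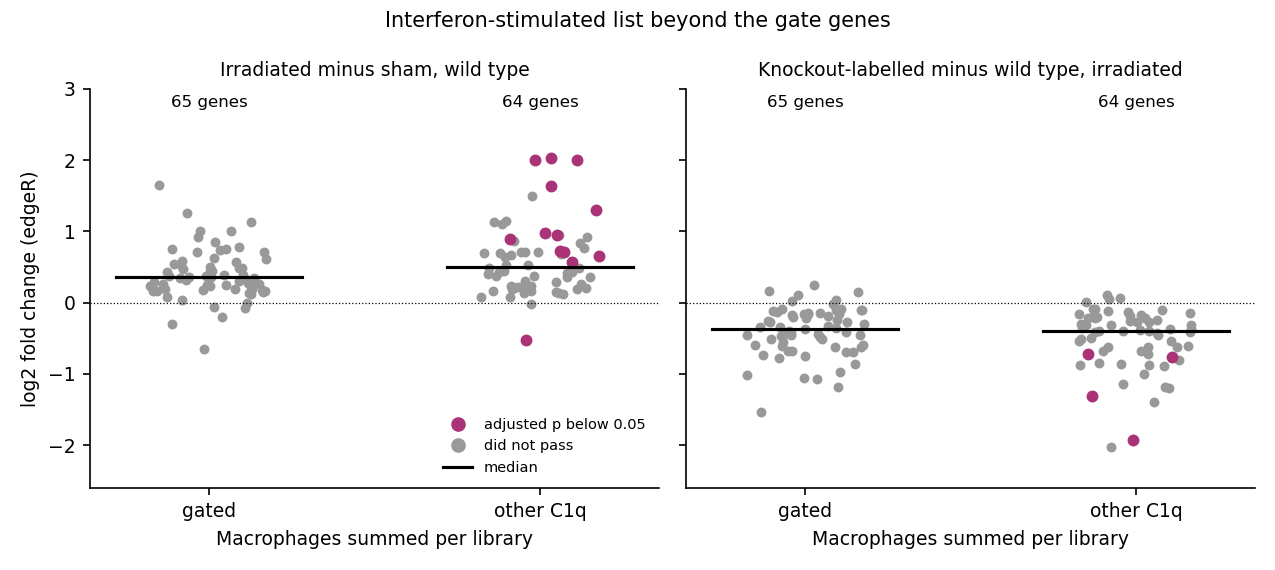
log2 fold change (y axis, edgeR) of each tested member of the interferon-stimulated list in gated and other C1q macrophages (x axis), for irradiation on the left and the knockout label on the right; bars are medians and coloured points passed an adjusted p of 0.05. Medians are 0.35 and 0.50 on the left and -0.37 and -0.40 on the right, and the only coloured points are in other C1q macrophages.

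Irf7 (ENSMUSG00000025498, chr7:141262706-141266481), the factor that amplifies interferon genes, was at 222 and 236 CPM in gated sham cells, 595 and 514 in irradiated wild type, and 182 and 337 in the knockout-labelled libraries. The irradiated wild-type values were the highest and the knockout-labelled values spanned the sham values. The log2 change was 1.25 ± 0.29 (SE) for irradiation and -1.19 ± 0.28 for the knockout label, with adjusted p of 0.303 and 0.568 by edgeR. Without second-lineage cells the changes were 0.97 and -1.13, with adjusted p of 0.0157 and 0.000925. In other C1q macrophages Irf7 was at 35.9, 37.8, 162, 129, 34.1 and 48.2 CPM and passed both tests, at 2.01 ± 0.19 (adjusted p = 0.00848) and -1.93 ± 0.18 (adjusted p = 0.0189). Irradiation missed the threshold there without sham 1 or sham 2 (adjusted p = 0.0511 and 0.0517). The knockout label missed it without sham 1, sham 2 or knockout-labelled 1 (0.0582, 0.0596 and 0.0833).

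Cxcl10 (ENSMUSG00000034855, chr5:92346638-92348889) followed the same order, at 266 and 445, 1002 and 855, and 316 and 468 CPM in gated cells. Its log2 changes were 1.35 ± 0.30 and -1.34 ± 0.29, with adjusted p of 0.286 and 0.568, and without second-lineage cells 1.08 and -1.32, with 0.0157 and 0.000876. Ms4a4c (chr19:11404770-11427246), a membrane protein of the Ms4a family, was at 110 and 123, 403 and 341, and 169 and 224 CPM. Its changes of 1.66 ± 0.23 and -1.02 ± 0.21 had adjusted p of 0.0648 and 0.568, and without second-lineage cells both passed (1.51 and -1.17, with 0.000445 and 0.000704). In all 3 genes the irradiated wild-type libraries were separate from the other 4. With cells thinned to 3000 UMIs, the knockout-label changes of Irf7, Cxcl10 and Ms4a4c shrank to -0.64, -0.60 and -0.39 (edgeR adjusted p from 0.685 to 0.722). The irradiation changes were then 1.07, 1.14 and 1.14 (adjusted p from 0.119 to 0.178). At a mitochondrial limit of 5% the knockout-label changes were -0.69, 0.08 and -0.22, and none passed. By DESeq2 all 3 genes passed for both contrasts.

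Further genes that, like Cxcl10, were outside the interferon list came as near to the threshold. Cfb, complement factor B, was at 29.3 and 16.2, 127 and 113, and 59.0 and 70.0 CPM (irradiation 2.40 ± 0.28, adjusted p = 0.06). Gdf15, a stress cytokine and p53 target, was at 73.3 and 44.0, 214 and 273, and 150 and 125 CPM (2.05 ± 0.26, adjusted p = 0.063). Both passed for irradiation and for the knockout label without second-lineage cells. Ccr2, the receptor of monocyte-derived cells, was at 80.7 and 85.8, 353 and 263, and 401 and 416 CPM (1.87 ± 0.23, adjusted p = 0.06; without second-lineage cells 2.08, adjusted p = 0.000209). Unlike the former, Ccr2 was higher in the knockout-labelled than in the irradiated wild-type libraries, with a log2 difference of 0.30 ± 0.19. The list of monocyte-derived genes had a median log2 change of -0.27 after irradiation in gated cells as reported. Without second-lineage cells 2 of its 18 tested members rose there and 1 fell, against 0.166% and 0.179% of all genes. In other C1q macrophages its median was 0.39, and 5 of 23 members rose and 1 fell, against 1.59% and 1.4% of all genes. Cd163, a haemoglobin scavenger receptor of resident macrophages, was at 242 and 322, 72.6 and 117, and 80.1 and 133 CPM (-1.60 ± 0.33, adjusted p = 0.218; without second-lineage cells -1.82, adjusted p = 0.00372).

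**Figure D5:**
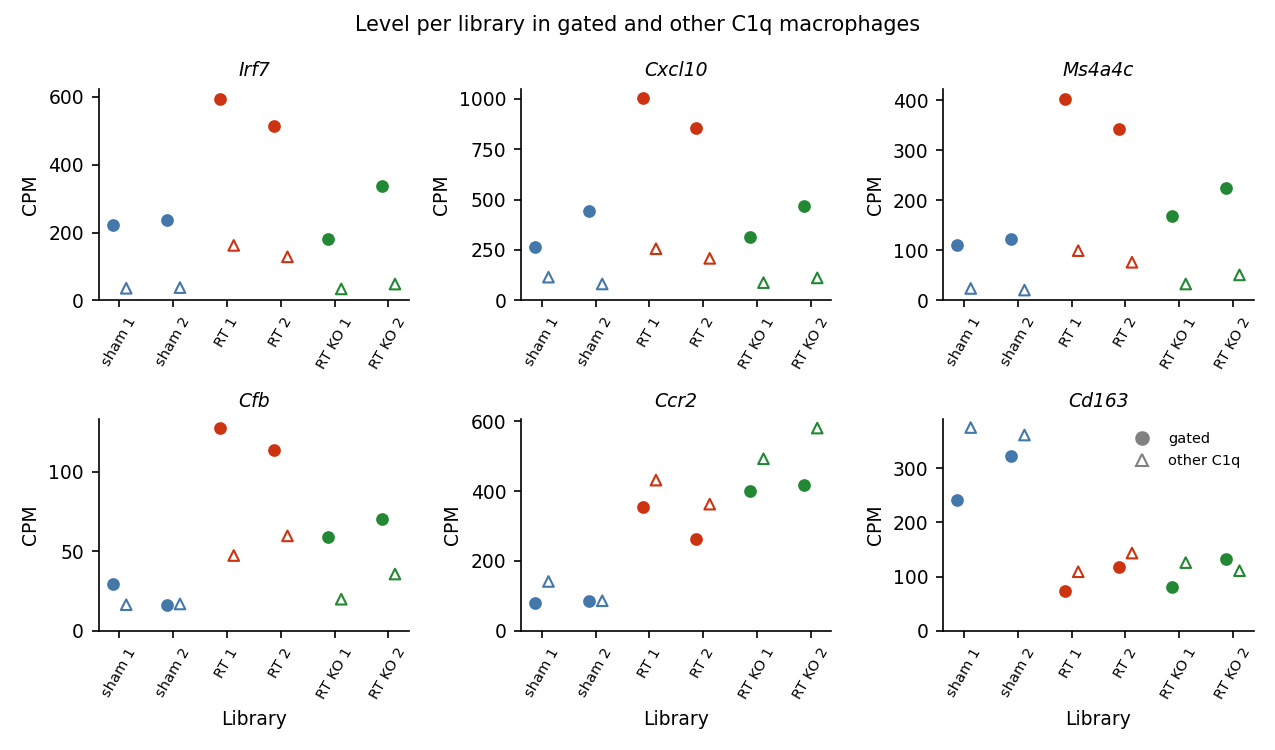
Level of Irf7, Cxcl10, Ms4a4c, Cfb, Ccr2 and Cd163 (y axes, CPM) per library (x axis) in the summed gated cells (filled circles) and other C1q macrophages (open triangles), coloured by group. For the first 4 genes the irradiated wild-type libraries are highest in both kinds of cells, Ccr2 is high in all 4 irradiated libraries and Cd163 is high in the 2 sham libraries.

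Further genes that passed for irradiation once second-lineage cells were left out were the chemokines Ccl5 (log2 change 3.34) and Ccl4 (0.90), Il1rn (1.51), the antagonist of IL-1, and Furin (1.43), a protein convertase, all higher. Lower were the lipid-associated genes Gpnmb (-4.50) and Spp1 (-2.27), the apoptotic cell receptor Timd4 (-1.77) and Hpgd (-1.11). For the knockout label, 9 of 65 tested members of the interferon list fell under this alternative and 0 rose, against 0.626% and 0.23% of all genes, including Oasl1 (-0.97), Usp18 (-0.88), Oas1a (-1.0) and Bst2 (-0.68), beside H2-K1 (-0.72), Ccl2 (-0.92), Ccl7 (-1.03), Tnf (-0.85) and the p53 target Cdkn1a (-1.0). For irradiation 2 of the 65 rose, Irf7 and Ms4a4c, and 0 fell, against 0.166% and 0.179% of all genes.

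By list, members of which the libraries of both groups did not overlap were counted in gated cells, as reported. Of all genes tested, 22.2% were separate and higher and 18.7% separate and lower after irradiation, and 28.2% were separate and higher and 11.7% separate and lower with the knockout label. MHC class I genes had 16 of 21 members separate and higher after irradiation and 0 lower (median 0.46), and 1 higher and 10 lower with the knockout label (median -0.43). MHC class II genes had 8 of 9 separate and higher and 0 lower (median 0.52), and 0 separate for the knockout label. Chemokines had 10 of 20 higher and 2 lower (0.51), and 3 higher and 8 lower with the knockout label (-0.65). p53 targets had 13 of 22 higher and 2 lower (0.70), and 2 higher and 6 lower with the knockout label (-0.15). NF-kB and cytokine genes had 10 of 26 higher and 4 lower (0.19), and 0 higher and 15 lower with the knockout label (-0.43). Resident macrophage genes had 1 of 24 higher and 13 lower (-0.37). With the knockout label 10 of them were higher and 0 lower (0.31), against 28.2% and 11.7% of all genes. Monocyte-derived genes had 5 of 22 higher and 10 lower (-0.27), and 3 higher and 5 lower with the knockout label (-0.26). None of these members passed the test. Genes known to respond to tissue dissociation had 7 of 20 separate and higher and 6 lower after irradiation, and 1 higher and 14 lower with the knockout label (-0.52). Of 8 neutrophil markers, 0 were higher and 7 lower after irradiation (-3.25), and 3 were higher and 0 lower with the knockout label. The part of either in the other differences was not tested.

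The 2 genes that fell with the knockout label were a predicted gene, Gm10076 (1019, 1085, 1204, 1088, 237 and 272 CPM; -2.27 ± 0.17, edgeR adjusted p = 0.00565), and G530011O06Rik (112, 64.9, 177, 167, 31.0 and 41.3 CPM; -2.33 ± 0.25, adjusted p = 0.0434). Both fell as much in other C1q macrophages, by 2.27 and 2.59 on the log2 scale. Gm10076 missed the threshold without irradiated wild type 1 or 2 (adjusted p = 0.0927 and 0.102) and at a mitochondrial limit of 5% (0.255). G530011O06Rik missed it without irradiated wild type 1 or 2 (adjusted p = 0.461 and 0.404) and without knockout-labelled 1 (0.107). It also missed it with a replicate block (0.0902), with at least 3 or 8 gate UMIs (0.052 and 0.0929), with cells thinned to 3000 UMIs (0.077), and at the 5% limit, where the change was -1.52 (adjusted p = 1). Xist, the RNA of the inactive X, was at 638 and 765 CPM in gated knockout-labelled cells against 269 to 304 in the 4 wild-type libraries. Its part in the knockout-label results was not tested.

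Whether a change in gated cells differed from that in other C1q macrophages was fitted as a difference of differences over 12602 genes, with the library as a block. For irradiation 15 genes were lower in this difference (0.119% called) and 0 higher. For the knockout label 0 passed by edgeR (0% called), where 229 had an unadjusted p under 0.05 and DESeq2 also called 0. No member of the interferon list passed either, and the list's median differences were -0.06 and 0.10, against 0.06 and 0.01 over all genes. For Irf7 the differences were -0.66 ± 0.19 and 0.69 ± 0.17, with adjusted p of 0.434 and 1. A missed threshold does not show that the changes were alike.

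Il1b, the inflammasome cytokine, was among the 15, at 975, 1787, 629, 594, 544 and 485 CPM in gated cells against 420, 706, 643, 661, 544 and 430 in the others, a difference of -1.34 ± 0.15 (edgeR adjusted p = 0.00223). Tnfaip2 (-1.74 ± 0.20) and S100a11 (-1.28 ± 0.16) were next, and in all 3 the gated sham libraries were the high ones. Without second-lineage cells only Adam8, a sheddase of leukocytes, still passed, at -2.28 (adjusted p = 2.92e-05). Adam8 did not pass with cells thinned to 3000 UMIs (-0.36, adjusted p = 0.982), with at least 8 gate UMIs (-2.03, adjusted p = 0.105) or without sham 2 (-1.91, adjusted p = 0.0886). Without second-lineage cells Il1b was at 0.03. Neutrophil markers were also highest in gated sham cells, as given above, and beyond that alternative their part in these differences was not tested.

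Marks of macrophage origin were read in gated cells and their neighbours side by side, with no test. A UMI of Lyve1, Folr2 or Timd4 was present in 65.2%, 70.6%, 52.3%, 65.8%, 63.4% and 68.1% of gated cells and in 63.3%, 68.7%, 48.2%, 57.6%, 62.9% and 60.1% of the others. Ccr2 was present in 15.2%, 19.6%, 57%, 52.2%, 62.0% and 50% of gated cells and 14.5%, 12.0%, 55.5%, 49.0%, 57.8% and 59.7% of the others. B cells, which should lack the resident marks, had them in 2.24% to 7.56% of cells, and had Ccr2 in 8.0% to 15.9%, at lower depth, so the sham shares of Ccr2 are near that background. Thinned to 3000 UMIs, Ccr2 was present in 14%, 10.4%, 45.2%, 38.0%, 49.3% and 44.3% of gated cells. In the others it was present in 13.2%, 9.62%, 46.9%, 44.0%, 47.4% and 53.7%. Both marks together were present in 4.35% and 3.92% of gated sham cells and in 22.7% to 32.4% of gated cells of the 4 irradiated libraries. The others had the same order, with 4.72% and 4.83% in sham and 18.0% to 28.3% in the irradiated libraries.

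Few UMIs of interferon genes were seen in gated cells, whose summed UMIs were also fewer. Gated cells held 409111 to 1695305 UMIs per library, and other C1q macrophages 9020875 to 18382998. Ifnb1, encoding interferon beta, had 129 UMIs in all kept cells, of which 0, 0, 0, 3, 3 and 0 were in gated cells and 1, 2, 17, 33, 2 and 4 in other C1q macrophages. A count of 0 allows up to 3 UMIs, which is 7.33 and 6.95 CPM in gated sham cells and 1.77 to 1.79 CPM in the first irradiated wild-type and the second knockout-labelled library. In other C1q macrophages Ifnb1 was at 0.0933, 0.152, 1.88, 2.77, 0.109 and 0.231 CPM, and passed for irradiation (log2 change 4.16, edgeR adjusted p = 0.025) and for the knockout label (-3.84, adjusted p = 0.048). The irradiation call was lost without either sham or either irradiated wild-type library (adjusted p from 0.0747 to 0.13), and the knockout-label call without any 1 of the 6 libraries (0.0839 to 0.442). Over all kept cells the levels were 0.0383, 0.0511, 0.910, 1.58, 0.248 and 0.234 CPM. In the knockout-labelled libraries 8 of 13 and 7 of 12 kept UMIs lay in C1q cells left out of both sets by the exclusions, and 35 of all 47 in knockout-labelled 2 lay in barcodes over the mitochondrial limit. The UMIs came from few cells: 51 kept cells held all 129, up to 22 in 1 cell, and 43 of the 51 had fewer than 4 gate UMIs. Most cells of any kind had fewer than 4. Those with 4 or more made up 2.33% to 12.9% of C1q macrophages and 4.71% to 7.83% of kept cells outside the C1q limit. Of 26 cells with an Ifnb1 UMI among other C1q macrophages, 22 also had a Tnf UMI, where 48.6% to 57.5% of all other C1q macrophages had one. Depth was not matched here. Median UMIs per library were 6640 to 21418 in kept cells with Ifnb1 and 4966.5 to 8780 in other C1q macrophages. Ifna1, Ifna2, Ifna4, Ifna5 and Ifna12 had 0 UMIs in gated and in other cells of every library.

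The same sum of gate UMIs was reached in other classes of the sort too. Of endothelial cells, which had UMI depths like those of macrophages, 18.8%, 19.0%, 29.1%, 19.9%, 18.7% and 27.2% had 4 or more. Both irradiated wild-type shares lay above both sham shares, and the knockout-labelled shares overlapped those of both groups. Neutrophils lay between 3.39% and 8.37%, B cells between 0.97% and 5.03%, and T cells between 0.885% and 6.15%. In none of these classes were both irradiated wild-type libraries above all 4 others with all UMIs, as they were among C1q macrophages. Thinned to 3000 UMIs, the endothelial shares were 8.28%, 6.23%, 9.09%, 9.42%, 2.67% and 6.30%, and the irradiated wild-type libraries were then the highest there and among T cells. The difference between classes was not tested.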

How the data were processed

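The authors deposited 6 matrices that give, for each barcode, the raw count of UMIs of 32285 genes, per the file headers. The submitters' processing notes name Cell Ranger 5.0.0, build mm10 and Seurat 3, with no role for the last. The members, the gene lists and the tests were chosen with earlier results of these data known.

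Cells were kept and gated by the rule in the report. Raw counts of gated and of other C1q macrophages were summed per library and tested with edgeR 4.0.16 (quasi-likelihood, TMM, filterByExpr, Benjamini-Hochberg adjustment at 0.05). Rule genes stayed in the fits and out of the counts. Genes named were the 30 highest and 15 lowest median log2 ratios of CPM + 5 with 1 sign in all 6 libraries and a UMI in at least 10% of cells, called genes, and members of the lists. Alternatives used DESeq2 1.42.0, other filters, gates and depths, and the removal of doublets by the highest scores of the caller in scanpy 1.11.5. That caller's own threshold marked 0 to 9 cells per library and was not used. No doublets were removed in the reported values. The edgeR step was tested on simulated data.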

Additional observations from a re-analysis of the deposited data

Results flagged for a closer look

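For 15 genes the change between irradiated and sham wild type differed between gated and other C1q macrophages by the edgeR test of the difference itself, each lower in gated cells. On the log2 scale the differences were -1.74 for Tnfaip2, -1.34 for Il1b, -1.28 for S100a11, -2.14 for G0s2, -2.13 for Adam8, -2.17 for Cd24a, -1.91 for Sorl1, -1.10 for Ccrl2, -1.33 for Plaur, -1.94 for Slc7a11, -0.91 for S100a6, -1.55 for Hp and -1.85 for Il1r2. Without cells carrying second-lineage transcripts, Adam8 was at -2.28 and passed, and the other 12 did not pass, from -1.27 for Cd24a to 0.83 for G0s2.

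Ccl21a at -10.23 and Mmrn1 at -12.29 rested on the first sham library, whose gated cells held 1149 and 335 CPM while the gated cells of the others held at most 0.607. Without that library they were at -0.71 and -2.76 and did not pass, with adjusted p of 0.996 and 1.

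Barcodes over the mitochondrial limit, which no comparison used, held gated C1q macrophages at 14.3% (95% Wilson interval 10.9 to 18.4) and 8.0% (6.53 to 9.77) in the irradiated wild-type libraries, above 2.02% and 1.40% in the sham libraries.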

How the results depend on the processing

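The share differences kept their direction in all 12 alternatives each and had no threshold to pass. The irradiated minus sham difference moved to 5.15 points with at least 8 gate UMIs, 4.56 with cells thinned to 3000 UMIs and 3.02 as a share of all kept cells, and the knockout-labelled difference to -2.14 as a share of all kept cells.

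Counts of called genes are given as irradiation then knockout label in gated cells, the same in other C1q macrophages, and the same for the difference between them, and they moved more. As reported they were 0, 2, 384, 57, 15 and 0. With no filter on low counts they were 73, 12, 1548, 881, 124 and 28. With DESeq2 they were 50, 41, 665, 335 and 32, with 0 for the last. With DESeq2's size factors in edgeR, gated irradiation had 1. Fitting only the 4 libraries compared gave 38 for gated irradiation and 117 and 6 in other macrophages. At least 3 gate UMIs gave 1 for the gated knockout label, and at least 8 gave 2 for gated irradiation and 9 for the irradiation difference. Thinning to 3000 UMIs gave 8 and 5 in gated cells, 140 for the knockout label in other macrophages and 9 for its difference. A mitochondrial limit of 5% gave 0 for the gated knockout label and 2 and 6 in other macrophages. Its gated irradiation and irradiation difference were not run, since a sham library fell under 10 gated cells. Removing doublets gave 23 for the irradiation difference. Leaving out second-lineage cells gave 27, 67, 882, 238, 40 and 32. The cause of these shifts was not tested. Leaving out 1 library at a time gave 0 to 36 and 0 to 22 in gated cells, 35 to 224 and 5 to 32 in other macrophages, and 24 to 95 and 0 to 40 for the differences. With a replicate block the first 4 counts were 2, 1, 198 and 17. The labels share only a number, and same-numbered libraries correlated at -0.09, 0.25 and -0.15.

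Of 482 values of single named genes under the alternatives, 365 kept direction and side of the threshold and 8 reversed. The reversed values were Cxcl10 for the knockout label at 0.079 (mitochondrial limit of 5%), Isg15 for irradiation at -0.046 (at least 8 gate UMIs) and for the knockout label at -0.051 without the second knockout-labelled library (0.48 without the first), and in the irradiation difference Il1b at 0.25 and Slc7a11 at 0.037 (3000 UMIs) and Ccrl2 at 0.066, G0s2 at 0.83 and Il1b at 0.030 (second-lineage cells left out).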
